A study of Mus musculus with 8 samples.

Results

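The 33 genes described here encode proteins that copy DNA or that are made for S phase, the stage of the cell cycle in which the genome is duplicated. They were taken as a list of gene symbols, and all 33 were found among the 55414 gene identifiers of the count table. The list holds 8 genes of origin licensing, 4 of helicase activation, 3 polymerase and primase subunits, 4 of the sliding clamp and its loader, 2 of Okazaki fragment maturation, 4 of nucleotide supply, 6 of chromatin and DNA methylation copying, and 2 G1/S cyclins.

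RNA was sequenced from Paneth cells (PCs), the antimicrobial secretory cells at the base of small intestinal crypts, after fluorescence-activated sorting of single cell suspensions. The C57BL/6J mice received standard chow (the standard diet group, 4 mice) or zinc depleted chow (the zinc depleted diet group, 4 mice) for 7 weeks, and each mouse gave 1 library. The comparison asks how a lack of dietary zinc alters the transcripts of PCs. The labels give no age, sex or batch of the mice.

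Replication starts from origins that are licensed in G1, when the origin recognition complex, Cdc6 and Cdt1 load the ring of Mcm2 to Mcm7 onto DNA. In S phase Cdc45 and the GINS complex turn that ring into an active helicase, polymerases extend primers on both strands, and the clamp Pcna holds them on their template. Many of these genes are transcribed in cycling cells under E2F factors, which bind near their starts. In the crypt, stem cells and transit amplifying cells divide, whereas mature PCs are regarded as post-mitotic.

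Promoters were searched because replication genes are textbook E2F targets. RefSeq promoter windows (300 bases, from 250 before to 50 after the start, on GRCm38.p6) were at hand for 28 of the 33 genes. They were searched on both strands for TTTGGCGC, TTTCCCGC, TTTCGCGC and TTTGCCGC, and overlapping matches were counted separately. For a gene with several starts, a match in the window of any of them counted. A match was found for 12 of the 28 genes (42.9%), beside 704 of 27025 genes with a window (2.60%). By role, 6 of 7 licensing genes (85.7%), 3 of 6 chromatin copying genes, 1 of 4 clamp genes, 1 of 2 polymerase and primase genes, 1 of 2 Okazaki fragment genes and no gene of helicase activation, nucleotide supply or the cyclins held one. These are matches of letters, not measured binding. The stretches below carry the matches in capitals, 5′ to 3′ along the gene, and are shown for the licensing genes and, without a match, for Pcna.
Mcm5: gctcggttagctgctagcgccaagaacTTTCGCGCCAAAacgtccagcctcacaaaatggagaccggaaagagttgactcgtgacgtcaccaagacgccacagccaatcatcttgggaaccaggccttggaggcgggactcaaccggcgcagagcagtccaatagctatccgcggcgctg
Mcm6, distal: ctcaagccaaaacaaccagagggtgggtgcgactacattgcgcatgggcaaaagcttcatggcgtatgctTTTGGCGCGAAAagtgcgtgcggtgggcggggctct
Mcm6, proximal: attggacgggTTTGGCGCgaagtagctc
Mcm7, distal: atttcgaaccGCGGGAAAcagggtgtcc
Mcm7, proximal: gtgacgacgTTTCGCGCcaatttcggt
Mcm3: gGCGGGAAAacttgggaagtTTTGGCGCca
Cdt1: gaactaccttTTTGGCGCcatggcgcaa
Cdc6: ccggtggagaGCGGGAAAtcgcctgggg
Pcna: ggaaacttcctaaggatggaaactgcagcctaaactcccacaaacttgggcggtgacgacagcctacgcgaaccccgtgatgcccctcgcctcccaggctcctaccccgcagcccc

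Each stretch matched the GRCm39 chromosome of its gene exactly at 1 place. The Mcm5 stretch (chr8:75835957-75836136, plus strand) lies upstream of the gene with no annotated exon, and its 2 matches overlap on opposite strands. The distal Mcm6 stretch (chr1:128287517-128287622, minus strand) also holds 2 overlapping matches and no exon, and the proximal one (chr1:128287472-128287499) falls in the 5′ UTR of a longer transcript. Both Mcm7 stretches (chr5:138170293-138170320 and chr5:138170112-138170138, minus strand) are in its annotated 5′ UTR, and the distal one is also exonic in Ap4m1, the divergent neighbour. The Mcm3 stretch (chr1:20890489-20890518, minus strand) is 5′ UTR, and the Cdt1 stretch (chr8:123294776-123294803, plus strand) runs from 19 bases of 5′ UTR into the first 9 coding bases. The Cdc6 stretch (chr11:98798829-98798856, plus strand) is intronic in the gene record, and the Pcna stretch (chr2:132095235-132095350, minus strand) lies upstream of Pcna in an exon of the long non-coding RNA AV099323. Among the licensing genes, Mcm2 has a window without a match, and Mcm4 has no entry in the table. Gins1, Gins2, Ccne2 and Pole have none either.

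The libraries held 8557690 to 12648005 counts. PC transcripts dominated them: the 10 Paneth cell markers, among them the lysozyme gene Lyz1 and the α-defensin gene Defa24, held 4890870 to 7314970 counts a mouse. In CPM (counts scaled to a library of 1000000) they summed to 298154 to 616588 in the standard diet mice. In the zinc depleted mice they summed to 482905 to 855101 CPM. All CPM given here are scaled by TMM, which multiplies each library total by a factor that keeps most genes level between mice. Summed CPM on this scale are therefore not shares of a library. The TMM factors were 0.928 to 1.57 on the standard diet and 0.719 to 1.10 on the zinc depleted diet. Standard diet replicate 1 stood apart with the factor of 1.57 and 60.1% of its counts in the 20 genes most counted over all mice (68.5% to 78.9% in the other mice). The 7 stromal and vessel markers summed to at most 1.48 CPM in any mouse, and Col1a1, Cd3e and Csf1r were each at or near 0 CPM in every mouse. Other members of the immune list that holds Cd3e and Csf1r were counted. Lyz2 was at 14.7 to 51.7 CPM, and Ptprc reached 2.55 CPM in zinc depleted replicate 3.

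Replication transcripts were a trace of the PC libraries. Per length, as TPM (counts per kilobase of exon, scaled to the same total in each mouse, mean of 8 mice with its SD), Pcna was the highest at 10.2 ± 2.71 TPM, followed by Fen1, the flap endonuclease of Okazaki fragments, at 3.93 ± 1.78 TPM and Mcm6 at 3.59 ± 2.45 TPM. Pcna ranked at the 91.9th percentile of the 10911 genes tested. Fen1 and Mcm6 overlapped in their spread over the 8 mice, which includes the difference between diets. Their order differed by diet, with mean TPM of 5.21 for Mcm6 and 4.75 for Fen1 on the standard diet and of 1.98 for Mcm6 and 3.10 for Fen1 on the zinc depleted diet. The lowest were Pole, the catalytic subunit of leading strand polymerase ε, at 0.257 ± 0.185 TPM, Pola1, the catalytic subunit of polymerase α, at 0.289 ± 0.207 TPM, and Mcm10, a helicase activation factor, at 0.337 ± 0.319 TPM. These lowest 3 do not differ beyond their spread over the mice of both diets, and all 33 genes passed the filter on low counts.

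Between the diets, 3 of the 33 genes fell in the zinc depleted mice: the helicase subunits Mcm6 and Mcm7 and the licensing factor Cdt1 (edgeR's quasi-likelihood test, Benjamini-Hochberg adjusted p under 0.05 over 10911 genes). None of the 33 passed in the other direction. Of all genes tested, 0.257% passed as lower and 0.147% as higher. The fitted log2 fold change, zinc depleted minus standard diet, was below 0 for 31 of the 33 genes (for all 33 with library totals as the scale), against 50.7% of all genes, and its median was -0.59, against -0.01 over all genes. Unadjusted p was under 0.05 for 21 of them, all 21 on the lower side (6.04% of all genes), and for none on the higher side (4.43% of all genes). In 12 of the 33 every zinc depleted mouse lay below every standard diet mouse (3.79% of all genes). In bulk RNA of a sort, fewer cells of a type and less RNA per cell cannot be told apart.

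The 3 calls did not hold in most fits with a mouse left out, and none of the 33 passed with library totals as the scale or without edgeR's robust option. Nor did any pass at an adjusted p under 0.05 without standard diet replicate 1, 2 or 4. The same held without zinc depleted replicate 2, 3 or 4. Cdt1 and Mcm6 passed without standard diet replicate 3, and Mcm6 without zinc depleted replicate 1. Over all genes, 44 passed with all mice, 11 with library totals and 25 without the robust option. Without standard diet replicates 1 to 4 in turn, 33, 8, 31 and 8 of all genes passed. Without zinc depleted replicates 1 to 4 in turn, 26, 13, 36 and 17 passed. Of the 33, 16 had an unadjusted p under 0.05 without standard diet replicate 1, the library that stood apart. In that fit 30 had a log2 fold change below 0, with a median of -0.56. With DESeq2 5 of the 33 passed, Mcm6, Mcm7, Cdt1, Uhrf1 and Chaf1a, all lower, beside 134 of 12619 genes.

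**Figure D1:**
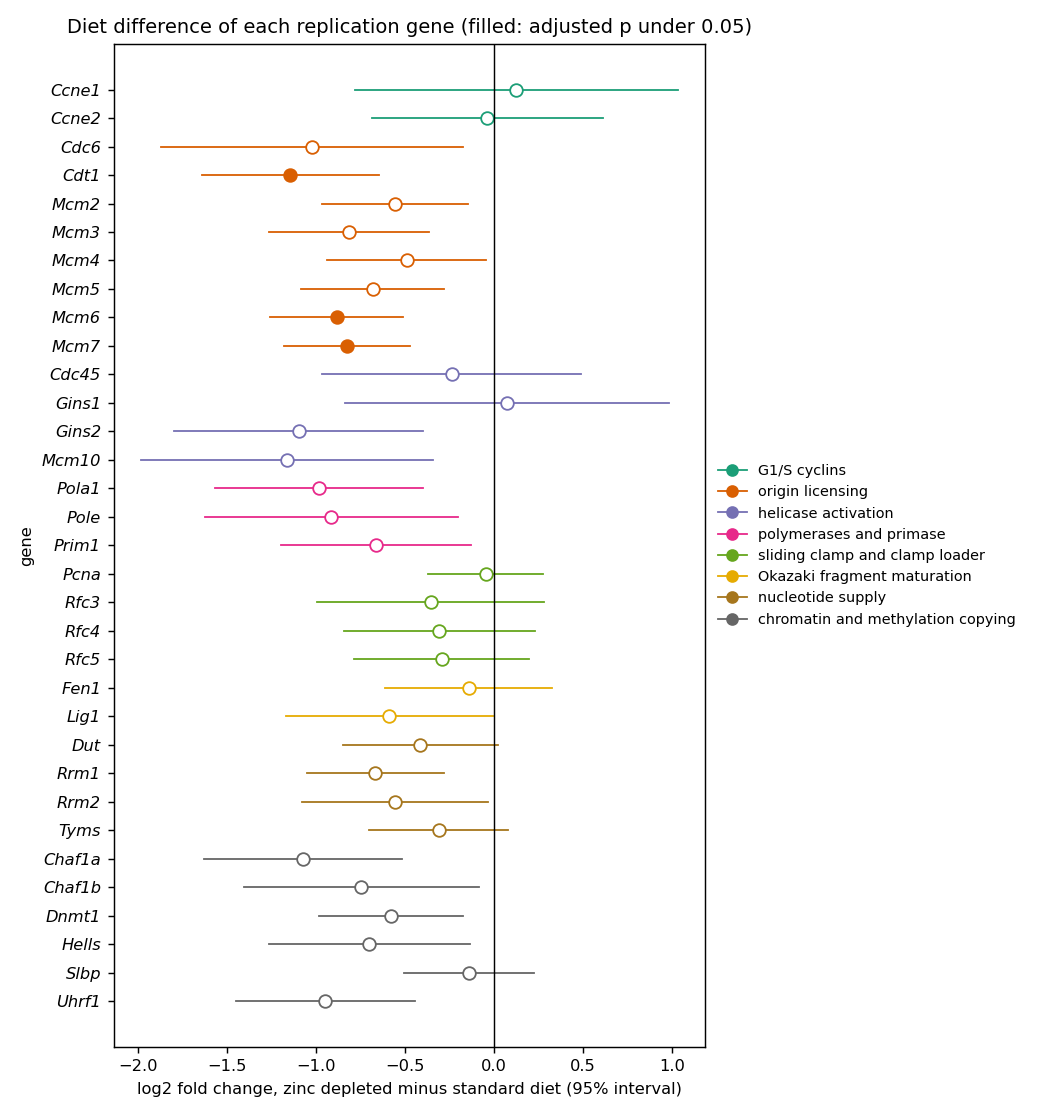
Fitted log2 fold change of the 33 replication genes (x axis, zinc depleted minus standard diet, with its 95% interval) by gene and coloured by role. The filled points of Cdt1, Mcm6 and Mcm7 have an adjusted p under 0.05, and only Gins1 and Ccne1 lie to the right of 0, although both lie to the left with library totals as the scale.

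Origin licensing carried all 3 calls. Of its 8 genes all had an unadjusted p under 0.05, and their median log2 fold change was -0.82. Mcm6, a subunit of the helicase ring, stood at 32.0, 27.1, 24.3 and 26.5 CPM in standard diet replicates 1 to 4 and at 20.5, 13.6, 13.2 and 12.4 CPM in zinc depleted replicates 1 to 4. Even the highest zinc depleted mouse, replicate 1, was below all standard diet mice. Mcm6 fell by 45.8% (log2 fold change -0.88, SE 0.18, edgeR adjusted p = 0.0376).

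Mcm7, another subunit of the ring, was counted at 21.7, 18.4, 24.2 and 21.4 CPM on the standard diet and at 13.8, 9.47, 11.9 and 12.9 CPM on the zinc depleted diet. The groups were apart, with zinc depleted replicate 2 the lowest. Mcm7 fell by 43.6% (log2 fold change -0.83, SE 0.17, edgeR adjusted p = 0.0384).

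Cdt1, which brings the ring to the origin, was at 12.1, 8.20, 7.31 and 9.32 CPM on the standard diet and at 4.75, 4.67, 4.47 and 2.99 CPM on the zinc depleted diet. It rested on 32 to 225 counts a mouse, its groups did not overlap, and zinc depleted replicate 4 was the lowest. Cdt1 fell by 54.8% (log2 fold change -1.14, SE 0.24, edgeR adjusted p = 0.0393).

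Mcm3, also of the ring, was at 14.3, 15.3, 10.6 and 15.4 CPM against 10.3, 5.18, 8.53 and 7.58 CPM. The groups parted by a narrow gap between standard diet replicate 3 and zinc depleted replicate 1, and the log2 fold change of -0.82 (SE 0.21) did not pass (edgeR adjusted p = 0.108). Cdc6, the partner of Cdt1 in loading, was at 3.18, 2.87, 2.52 and 2.12 CPM against 1.73, 0.505, 1.12 and 1.87 CPM, on 4 to 59 counts a mouse. Its groups were apart too, with a log2 fold change of -1.02 (SE 0.40, edgeR adjusted p = 0.359). Mcm2, Mcm4 and Mcm5, the other ring subunits, overlapped between diets and had log2 fold changes of -0.56, -0.49 and -0.68, with edgeR adjusted p of 0.276, 0.423 and 0.150. Over Mcm2 to Mcm7 the median log2 fold change was -0.75.

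**Figure D2:**
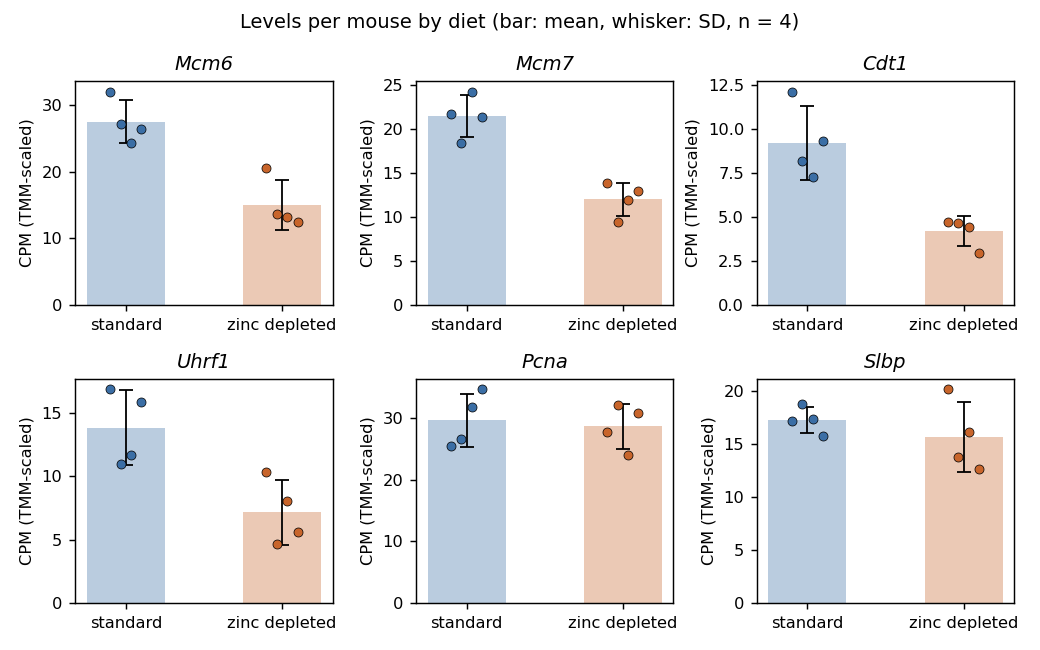
TMM-scaled CPM (y axis) of Mcm6, Mcm7, Cdt1, Uhrf1, Pcna and Slbp in each mouse (points), with bars for the mean and whiskers for the SD of 4 mice per diet. The diets do not overlap for Mcm6, Mcm7, Cdt1 and Uhrf1 and overlap for Pcna and Slbp on this scale, whereas with library totals as the scale Pcna does not overlap.

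Of the 4 helicase activation genes, 2 had an unadjusted p under 0.05, Gins2 and Mcm10, and none passed the adjusted threshold. Gins2, a GINS subunit, was at 3.88, 2.54, 3.40 and 5.61 CPM on the standard diet and at 2.16, 1.77, 1.67 and 1.59 CPM on the zinc depleted diet. The groups did not overlap, and the log2 fold change was -1.10 (SE 0.33, edgeR adjusted p = 0.200). Mcm10, at 6.90, 3.93, 1.64 and 6.88 CPM against 3.13, 1.39, 2.39 and 1.78 CPM, had the lowest log2 fold change of the 33 genes, -1.17 (SE 0.39, edgeR adjusted p = 0.255). Its standard diet replicate 3 lay among the zinc depleted mice.

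Gins1, another GINS subunit, was mixed between diets, with 1.62, 1.15, 1.51 and 1.69 CPM against 0.755, 1.14, 2.31 and 1.96 CPM. The zinc depleted mice lay on both sides of the standard diet mice, and the log2 fold change was 0.07 (SE 0.43, edgeR adjusted p = 0.973), or -0.26 with library totals as the scale. Cdc45, the helicase partner of GINS, had a log2 fold change of -0.24 (edgeR adjusted p = 0.878).

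All 3 polymerase and primase genes had an unadjusted p under 0.05, with a median log2 fold change of -0.91, and none passed the adjusted threshold. Pola1 was at 6.80, 4.75, 4.92 and 6.46 CPM on the standard diet and at 3.34, 1.77, 3.67 and 2.71 CPM on the zinc depleted diet. Its groups were apart (log2 fold change -0.98, SE 0.28, edgeR adjusted p = 0.153). Pole was at 5.29, 3.93, 3.91 and 4.55 CPM against 4.10, 2.40, 1.36 and 1.68 CPM, and zinc depleted replicate 1 alone reached into the standard diet range (log2 fold change -0.91, SE 0.34, edgeR adjusted p = 0.312). Prim1, the catalytic primase subunit, overlapped between diets with a log2 fold change of -0.66 (edgeR adjusted p = 0.338).

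None of the 4 genes of the sliding clamp and its loader had an unadjusted p under 0.05, and their median log2 fold change was -0.30. Pcna, the clamp, was at 25.5, 26.6, 31.9 and 34.7 CPM on the standard diet and at 27.7, 32.2, 24.0 and 31.0 CPM on the zinc depleted diet. The groups overlapped on this scale, and the log2 fold change was -0.05 with a 95% interval of -0.37 to 0.28 (edgeR adjusted p = 0.952). With library totals as the scale, when the median over all genes was -0.37, it was -0.40 (edgeR adjusted p = 0.383), and the groups, at 29.6 to 40.0 against 23.1 to 26.3 counts per 1000000, did not overlap. Rfc3, Rfc4 and Rfc5, subunits of the loader that opens the clamp, had log2 fold changes of -0.36, -0.31 and -0.29 and overlapped between diets. Because Pcna and the ring genes were counted in the same libraries, their ratio within a mouse is free of the scaling between mice. The counts of Mcm2 to Mcm7 over those of Pcna, a ratio chosen after the values were seen, were 4.71, 3.98, 3.15 and 3.26 on the standard diet and 3.05, 1.67, 2.57 and 2.11 on the zinc depleted diet. The groups of this ratio did not overlap. The ratio of Mcm6 to Slbp, chosen in the same way, was 1.40 to 1.86 on the standard diet and 0.818 to 1.02 on the zinc depleted diet.

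For Okazaki fragments, Fen1 was at 16.7, 11.2, 17.3 and 16.4 CPM against 14.9, 8.84, 11.8 and 20.02 CPM, so that zinc depleted replicate 4 was the highest of all mice and replicate 2 the lowest. Its log2 fold change was -0.14 (SE 0.22, edgeR adjusted p = 0.888). Lig1, the ligase that seals the fragments, had a log2 fold change of -0.59 (edgeR adjusted p = 0.469). Standard diet replicate 1 was its highest mouse, at 18.7 CPM against 7.69 to 11.5 CPM in the other standard diet mice. Without that mouse its log2 fold change was -0.25.

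Of the 4 nucleotide supply genes, Rrm1 and Rrm2 had an unadjusted p under 0.05 and none passed the adjusted threshold. Rrm1, the large subunit of ribonucleotide reductase, was at 23.7, 24.8, 17.8 and 28.7 CPM on the standard diet and at 17.4, 11.1, 16.6 and 14.6 CPM on the zinc depleted diet. The groups were parted by a narrow gap between standard diet replicate 3 and zinc depleted replicate 1 (log2 fold change -0.67, SE 0.18, edgeR adjusted p = 0.137). Rrm2, the small subunit, overlapped (log2 fold change -0.55, edgeR adjusted p = 0.443). Tyms, thymidylate synthase, was at 8.36, 9.75, 8.95 and 10.4 CPM against 7.55, 7.07, 7.497 and 7.95 CPM. Its groups were also apart, but by a small difference, with a log2 fold change of -0.31 (SE 0.19, edgeR adjusted p = 0.600). Dut, which removes dUTP, had a log2 fold change of -0.41 (edgeR adjusted p = 0.509).

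Among the 6 genes that copy chromatin and DNA methylation, 5 had an unadjusted p under 0.05 and none passed the adjusted threshold. Uhrf1, which brings the maintenance methyltransferase to new DNA, was at 16.9, 10.98, 11.7 and 15.9 CPM on the standard diet and at 10.4, 4.67, 8.06 and 5.61 CPM on the zinc depleted diet. The groups were apart, with a log2 fold change of -0.95 (SE 0.24, edgeR adjusted p = 0.0937). Chaf1a, the large subunit of chromatin assembly factor 1, was at 7.39, 6.07, 4.92 and 4.34 CPM against 3.02, 2.78, 2.39 and 2.71 CPM. Its zinc depleted mice were tightly grouped below the standard diet mice (log2 fold change -1.07, SE 0.27, edgeR adjusted p = 0.0884).

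Chaf1b, the partner of Chaf1a, was at 6.47, 4.51, 4.54 and 5.40 CPM against 4.21, 1.26, 3.99 and 2.90 CPM. The groups were apart, and zinc depleted replicate 2 was far below the rest (log2 fold change -0.75, SE 0.31, edgeR adjusted p = 0.403). Dnmt1, the maintenance methyltransferase, and Hells, a chromatin remodeller that helps it, overlapped, with log2 fold changes of -0.58 and -0.70 (edgeR adjusted p = 0.249 and 0.337). Slbp, which binds histone mRNA stem-loops, was at 17.2, 18.8, 17.4 and 15.8 CPM against 20.2, 13.8, 16.2 and 12.63 CPM. Its highest mouse was on the zinc depleted diet, and the log2 fold change was -0.14 with a 95% interval of -0.50 to 0.23 (edgeR adjusted p = 0.845).

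The G1/S cyclins, which activate Cdk2 at the start of S phase, had no unadjusted p under 0.05. Ccne1 had the highest log2 fold change of the 33 genes, 0.13 (SE 0.43, edgeR adjusted p = 0.953), on 8 to 25 counts a mouse, or -0.18 with library totals as the scale. It was at 1.24, 1.56, 1.76 and 1.38 CPM on the standard diet and at 2.697, 1.01, 1.67 and 1.03 CPM on the zinc depleted diet, where replicate 1 was the highest of all mice, replicates 2 and 4 lay below every standard diet mouse and replicate 3 lay among them. Ccne2 was at 3.07, 2.79, 2.65 and 2.86 CPM against 2.48, 2.27, 2.39 and 3.93 CPM, with a log2 fold change of -0.04 (SE 0.31, edgeR adjusted p = 0.979). Its zinc depleted replicate 4 was the highest of all mice, and the other zinc depleted mice lay below the standard diet mice.

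**Figure D3:**
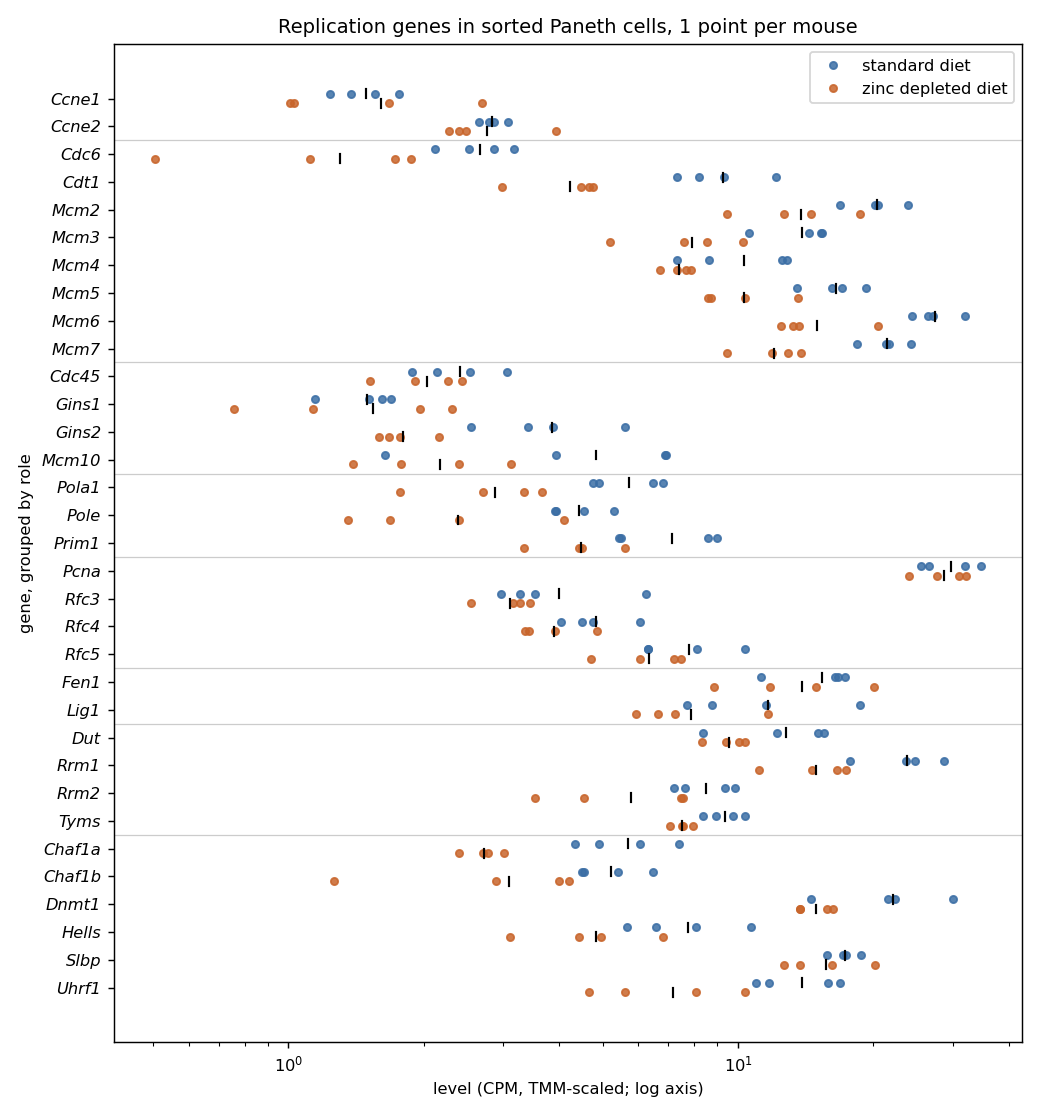
TMM-scaled CPM on a log axis (x axis) of the 33 replication genes, grouped by role, in 4 standard diet and 4 zinc depleted mice (points), with a black tick at the mean of each diet. Levels are to be compared within a gene, and the zinc depleted points lie wholly to the left of the standard diet points for 12 genes, Cdt1, Mcm6 and Mcm7 among them.

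The mice differed in how far they shared the pattern. For 18 of the 33 genes the lowest value of all 8 mice was that of zinc depleted replicate 2, for 8 that of replicate 3, for 6 that of replicate 4 and for 1 that of replicate 1. No standard diet mouse held the lowest value of any of the genes. The highest value was held by standard diet replicate 1 for 14 genes and by replicate 4 for 12. Summed over the 33 genes, the level was 385, 333, 319 and 386 CPM on the standard diet and 289, 209, 230 and 246 CPM on the zinc depleted diet. The groups of this sum did not overlap, and its mean was 356 ± 34.6 CPM against 244 ± 34.1 CPM (SD, n = 4 each), a difference of -31.5%.

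Zinc itself is held by some of the proteins encoded. By general knowledge 11 of the 33 bind zinc through fingers or related folds: Mcm2, Mcm4, Mcm5, Mcm6, Mcm7, Mcm10, Pola1, Pole, Prim1, Dnmt1 and Uhrf1. All 11 had an unadjusted p under 0.05 on the lower side, with a median log2 fold change of -0.83, and 2 passed the adjusted threshold. Of the other 22 genes, 10 had an unadjusted p under 0.05, with a median of -0.38, and 1 passed. These genes also differ in role, level and promoter from the 11, so zinc binding cannot be told apart from those. A promoter match was present in 11 of the 18 genes with a window and an unadjusted p under 0.05 (61.1%), and in 1 of the 10 others, Rfc3 (10.0%). The 11 include all 6 licensing genes with a match, so match and role cannot be told apart. For Mcm7, Uhrf1, Lig1 and Dnmt1 the match was not in the window of every start.

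The list of other replication genes holds 49, such as those of the origin recognition complex and replication protein A. Of these, 47 were tested and none passed the adjusted threshold of edgeR, 10 had an unadjusted p under 0.05, all lower, and the median log2 fold change was -0.29. DESeq2 called 1 of them. Tk1, thymidine kinase, was at 7.88 ± 2.32 CPM against 3.50 ± 1.24 CPM (SD, n = 4 each, log2 fold change -1.18, edgeR adjusted p = 0.0897). Topbp1, a scaffold of helicase activation, was at 15.7 ± 6.17 CPM against 8.99 ± 1.23 CPM (log2 fold change -0.82, edgeR adjusted p = 0.183). A promoter match was found in 12 of 40 of these genes (30.0%).

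Of 30 G1/S regulators, among them the E2F, retinoblastoma, cyclin D and inhibitor families, 27 were tested. None passed with edgeR, 1 with DESeq2, and 7 had an unadjusted p under 0.05, all lower, with a median log2 fold change of -0.22. Ccnd2, cyclin D2, was at 35.4 ± 6.83 CPM against 21.3 ± 4.68 CPM (SD, n = 4 each, log2 fold change -0.74, edgeR adjusted p = 0.0882). Skp2, of the ligase that marks Cdt1 and p27 for degradation, was at 3.94 ± 1.10 CPM against 1.61 ± 0.503 CPM (log2 fold change -1.28, edgeR adjusted p = 0.139).

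Of 28 genes of G2 and mitosis listed and tested, 4 fell, none passed as higher, 24 had an unadjusted p under 0.05 on the lower side, and the median log2 fold change was -0.91. The 4 were Top2a, topoisomerase IIα, from 38.7 ± 6.44 to 17.0 ± 5.62 CPM (SD, n = 4 each, log2 fold change -1.18, edgeR adjusted p = 0.0229), the kinesin Kif20b (log2 fold change -1.97, adjusted p = 0.0343), the spindle protein Nusap1 (log2 fold change -1.07, adjusted p = 0.0473) and the ubiquitin-conjugating enzyme Ube2c (log2 fold change -0.92, adjusted p = 0.0484). Within each mouse, the counts of the 33 replication genes over those of the mitosis list were 1.42 to 1.78 on the standard diet and 1.58 to 2.49 on the zinc depleted diet, and these groups overlapped. A promoter match was found in 1 of 25 mitosis genes (4.00%). With 1 mouse left out the count was 2 or, without standard diet replicate 2 or 4 or zinc depleted replicate 2 or 4, 0. Top2a and Ube2c were the 2 called without standard diet replicate 1. With edgeR on library totals the count was 0 (11 over all genes), and it was 10 with every gene of at least 1 count (251 over all genes). Only Kif20b and Top2a were called with DESeq2 size factors, without the robust option and with the replicate block. The DESeq2 test called 5 of the list, the 4 among them.

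Stem and transit amplifying cells are the dividing cells beside PCs in the crypt. Of 15 of their markers listed and tested, 1 fell, 12 had an unadjusted p under 0.05 on the lower side, and the median log2 fold change was -0.69. Their summed level was 1980 to 2603 CPM on the standard diet and 1009 to 1678 CPM on the zinc depleted diet, without overlap. Sox4, a progenitor transcription factor, fell from 22.7 ± 1.62 to 13.5 ± 1.96 CPM (SD, n = 4 each, log2 fold change -0.75, edgeR adjusted p = 0.0484), and of the fits with a mouse left out was called only without zinc depleted replicate 3. Sox4 was not called with DESeq2 size factors, with library totals, without the robust option or with the replicate block. Hmgb2, a chromatin protein of cycling cells, had a log2 fold change of -0.69 (edgeR adjusted p = 0.0756). The stem cell genes Olfm4 and Lgr5 were at 1345 ± 256 and 38.9 ± 1.97 CPM on the standard diet and at 693 ± 243 and 27.4 ± 8.73 CPM on the zinc depleted diet. Their log2 fold changes were -0.96 and -0.51 (edgeR adjusted p = 0.108 and 0.337). The markers without an unadjusted p under 0.05 were Smoc2, Rgmb and H2az1, with log2 fold changes of -0.10, -0.22 and 0.26. The ratio of the 33 replication genes to these markers within a mouse was 0.148 to 0.194 on the standard diet and 0.134 to 0.244 on the zinc depleted diet, with overlap. The cells were sorted by FACS for PC markers, and the study describes its sorts as nearly pure. The part of other crypt cells in the values of the replication genes was not tested.

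The 10 Paneth cell markers had a median log2 fold change of 0.45, 3 with an unadjusted p under 0.05, all higher. None passed in the edgeR fit used for the calls (2 with DESeq2). The median depended on the scale and on single mice. With library totals as the scale it was 0.12, when that of all genes was -0.37, and 1 marker passed. It was 0.27 without standard diet replicate 1 and 0.28 without zinc depleted replicate 2. Mptx2, a mucosal pentraxin, had a log2 fold change of 1.45 (edgeR adjusted p = 0.0712) and Pla2g2a, a secretory phospholipase, one of 0.57 (edgeR adjusted p = 0.253). Summed levels of other cell types overlapped between diets for enterocyte, goblet, enteroendocrine, tuft and immune markers. The 7 enteroendocrine markers summed to 15.1 ± 4.92 CPM on the standard diet and 7.03 ± 4.63 CPM on the zinc depleted diet (SD, n = 4 each), and neither of the 2 tested, Chga and Chgb, passed (log2 fold changes -1.64 and -1.01). The 7 tuft cell markers reached 353 CPM in zinc depleted replicate 3 against 18.1 to 89.8 CPM in the other mice. The part of these cells in the values of the replication genes was not tested either.

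**Figure D4:**
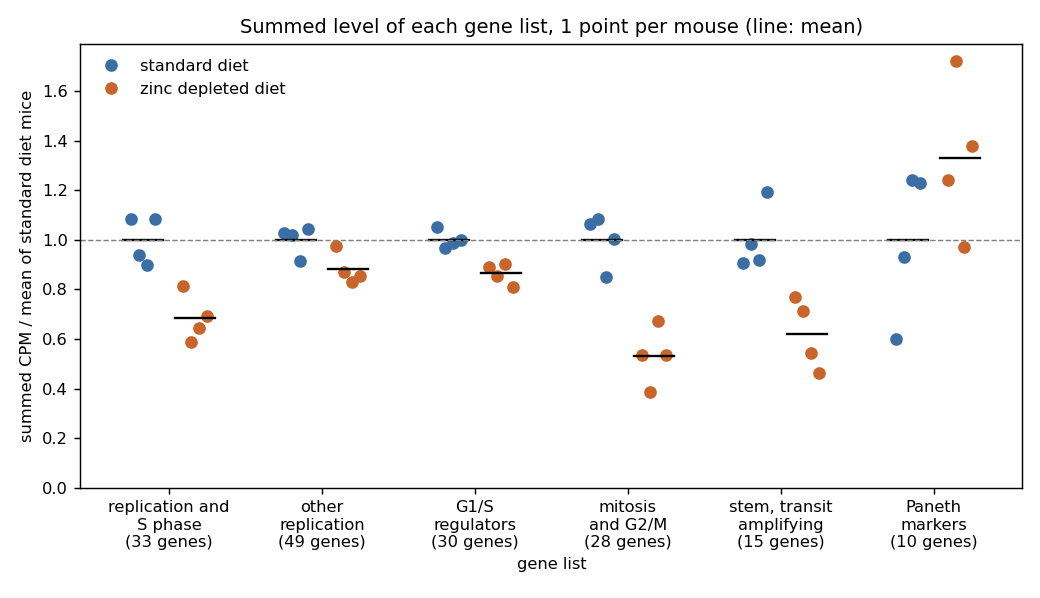
Summed TMM-scaled CPM of 6 gene lists in each mouse (points), divided by the mean of the standard diet mice (y axis, lines at the mean of each diet). The zinc depleted mice lie below the standard diet mice for the replication and S phase, G1/S, mitosis and stem or transit amplifying lists, and overlap with them for the other replication genes and the Paneth markers.

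For 16 of the 33 genes, exons share bases with a gene on the opposite strand, and neither the labels nor the paper's methods say whether the counting used strand. Of the genes whose partner codes for a protein, the shared bases were 67.3% of the exons of Gins2 (with Gse1), 51.0% of Chaf1a (with Ubxn6) and 41.4% of Rfc5 (with Wsb2), whose partners had log2 fold changes of 0.12, 0.32 and 0.13. In Mcm7 they were 6.20% with Ap4m1 and 6.13% with Cops6, with log2 fold changes of -0.25 and 0.04. Ap4m1 and Cops6 had 695 and 2400 counts over all mice, against 1510 of Mcm7. Fen1 shared 59.0% with the long non-coding Gm10143 and Rrm2 43.3% with the long non-coding Gm59512, which had 5 and 0 counts over all mice. Smaller overlaps also had well counted coding partners. Fen1 shared 6.95% with Tmem258 (2832 counts over all mice, against 1309 of Fen1). Rfc4 shared 16.5% with Eif4a2 (8862 against 378) and Ccne2 15.2% with Ints8 (1305 against 252). Cdc45 shared 10.6% with Ufd1 (1224 against 199). Mcm6 and Cdt1 shared none. The values of genes with a counted coding partner are therefore less certain than those of Mcm6 and Cdt1. Genes with such a partner include Mcm7, which was called, and Gins2, Chaf1a, Rfc5, Rfc4, Ccne2, Cdc45, Fen1 and Lig1.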

How the data were processed

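The deposited values are raw counts, whole numbers for each Ensembl identifier and sample, which the authors left unnormalized. The submitters' processing notes name FastQC 0.12.0, STAR 2.7.0a, DESeq2 and the build mm39. The paper's methods name GENCODE annotation and Salmon for its own quantification. For this table, the counter, its strand setting and the annotation were not given in the sources used here. Libraries came from a TruSeq stranded mRNA kit. The table held 0 columns of other samples, and 54749 of 55414 identifiers were named from GENCODE M39.

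Diets were compared over all genes with edgeR 4.0.16 (TMM, its expression filter, robust quasi-likelihood test, Benjamini-Hochberg threshold 0.05), in R 4.3.3. DESeq2 1.42.0 was an alternative, the study's own choice for expression. CPM used TMM-scaled library totals, and TPM the summed exon length. The log2 fold changes come from the fit, with SE as their size over the root of F. Pairs of mice on a diet differed by more than sampling noise (chi-square per degree of freedom 5.70 to 59.3).

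Members and lists were chosen with earlier results of these data known. Named with values per mouse are members whose diets do not overlap, the 3 highest and lowest per length and the 3 highest and 3 lowest log2 fold changes. Of other lists, called genes and the 2 of smallest p are named. Slbp, Lig1, Olfm4, Lgr5, Smoc2, Rgmb, H2az1, Chga, Chgb, Lyz1, Defa24, Col1a1, Cd3e, Csf1r, Ptprc and overlapping genes are named outside this rule. All of these were named after their values were seen. Intervals cover the spread between mice. A total of 3 counts, the limit a count of 0 allows, was 0.237 to 0.351 CPM, for counting error only. Alternatives changed the scaling, filter, test, replicate block and mice. For the regulator, mitosis and cell marker lists they were chosen after seeing the data.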

Additional observations from a re-analysis of the deposited data

Results flagged for a closer look

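For each of the 33 genes, the 4 mice of each diet were checked for 1 mouse far from the others, by the gap to its nearest neighbour over the range of the group. Of 66 groups, 4 passed Dixon's 95% limit, where chance alone gives about 1 in 20. Mcm6 in zinc depleted replicate 1 was at 20.5 CPM, with 12.4 to 13.6 CPM in the other mice of that diet. Without this mouse Mcm6 had an adjusted p under 0.05 as well. Cdt1 in zinc depleted replicate 4 was at 2.99 CPM, with 4.47 to 4.75 CPM in the others. Without this mouse neither Cdt1 nor any other of the 33 had an adjusted p under 0.05, and 17 of all genes did. Ccne2 in zinc depleted replicate 4 was at 3.93 CPM, with 2.27 to 2.48 CPM in the others. Fen1 in standard diet replicate 2 was at 11.2 CPM, with 16.4 to 17.3 CPM in the others.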

How the results depend on the processing

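Over 15 alternative fits, 446 values of single replication genes kept their direction and their side of the threshold, 27 lost and 8 gained a call, and 14 turned their sign. The number of the 33 called was 0 with library totals only, 8 with every gene of at least 1 count and 5 with DESeq2. It was 0 without edgeR's robust option and 0 to 2 with 1 mouse left out. The calls over all genes moved as well, from 44 of 10911 in the main fit. They were 11 of 10911 with library totals, 251 of 18839 with every gene of at least 1 count and 134 of 12619 with DESeq2. Without the robust option they were 25 of 10911, and with 1 mouse left out 8 to 36. The number of other replication genes called was 2 with every gene of at least 1 count and 1 with DESeq2. With library totals only the median log2 fold change was -0.99, when that of all genes was -0.37, so the difference between them was -0.62, beside -0.58 with TMM. The log2 ratio of the summed level, -0.55, was -0.91 by library totals and -0.94 as TPM. The sign turned for Gins1 and Ccne1 with library totals (-0.26 and -0.18) and for Gins1 with the replicate block (-0.040). With 1 mouse left out, log2 fold changes were -0.12 to 0.040 for Pcna (turned without standard diet replicate 4 or zinc depleted replicate 3), -0.19 to 0.29 for Gins1 (without standard diet replicate 2 or zinc depleted replicate 3 or 4), -0.23 to 0.30 for Ccne1 (without zinc depleted replicate 1), -0.25 to 0.042 for Ccne2 (without standard diet replicate 1 or zinc depleted replicate 1, 2 or 3) and -0.37 to 0.017 for Fen1 (without zinc depleted replicate 2). The causes were not tested. Replicate numbers are shared by the diets, but deviations of same-numbered mice correlated weakly (r = 0.03 to 0.09), so the numbers were not taken as pairs. With the replicate block 4 of the 33 were called, Uhrf1 in addition, and 53 of all genes in place of 44. With 32 to 593 counts a mouse behind the 3 called genes and 4 to 59 behind Cdc6, counting error is largest in the rarest transcripts.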
